A study of Mus musculus with 6 samples.

Results

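Il1a, Il6, Rela and Traf3ip2 were the 4 genes examined, out of 88 genes in the authors' table for the KEGG pathway of cellular senescence, and were found there by their symbols. Messenger RNA from mouse brain was sequenced in 6 samples, 3 labelled young brain and 3 labelled aged brain, all with neuroblast (an immature neuron) as the cell type. The sources used here do not give strain, sex or age in months. The labels of both groups also describe an injection of tamoxifen, with tissue taken 4 weeks later to measure tdTomato+ NK cells, and do not say how this relates to the sequenced RNA. Nothing says that the samples of a group came from different mice, so every p-value here rests on the spread between samples that may be technical repeats.

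NF-kB is a family of transcription factors that is held in the cytoplasm by inhibitor proteins and moves to the nucleus when these are degraded. RelA (p65, gene Rela) is its main activating subunit and usually pairs with p50, which is made from the product of Nfkb1. Act1, the product of Traf3ip2, is the adaptor that carries the signal from the receptor for the cytokine IL-17 to NF-kB. Interleukin 1 alpha (Il1a) and interleukin 6 (Il6) are secreted cytokines whose genes respond to NF-kB, and both are known parts of the secretory phenotype of senescent cells. Interleukin 1 alpha can itself activate NF-kB through its receptor.

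The stretch of DNA just before the Il6 start site was searched for the motif of NF-kB, of which another member encodes a subunit. It is from RefSeq, build GRCm38.p6, chr5:30012864-30013113, plus strand, and covers the 250 bases before the start. Capitals mark matches to the NF-kB motif, spelled as GGG, any 5 bases and CC, searched on both strands, with overlapping matches joined.
Il6 promoter: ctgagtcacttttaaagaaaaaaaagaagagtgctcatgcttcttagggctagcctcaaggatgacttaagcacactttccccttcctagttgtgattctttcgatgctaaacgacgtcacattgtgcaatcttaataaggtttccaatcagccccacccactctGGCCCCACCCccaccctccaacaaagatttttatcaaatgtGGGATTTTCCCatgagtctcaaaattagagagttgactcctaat
A minus-strand match lies 85 to 76 bases before the start. A plus-strand match, GGGATTTTCC, lies 44 to 35 bases before it and overlaps a minus-strand match 1 base further on. The same window held 0 matches for Il1a and 4 for Rela. Those of Rela are not separate sites. Matches 218 to 209 and 217 to 208 bases before its start overlap, and the stretch 66 to 57 bases before it matches on both strands. The motif is loose and was found in 45.8% of all 32851 promoters of that length. Among the 62 genes of the authors' table with a promoter, 39 (62.9%) held it in any promoter. This is a share of genes and the former a share of promoters, so they cannot be compared. A match is therefore a description of the letters only. Promoters were found for 3 of the 4 genes, without Traf3ip2.

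The libraries were not alike in ways that touch each value below. The deposited values are an expression signal per gene and library with 2 decimals and no named unit, and their sequencing depth is unknown. The summed signal of the table was 1902 to 2328 in the young libraries. It was 1900 in aged replicate 1, close to the lowest young library. In aged replicates 2 and 3 it was 2992 and 2943, above all young libraries. Aged replicate 1 stood apart from the other 5 in the order of these genes, so results are given with and without it. Each of the 88 genes had a higher aged than young mean, so the authors' selection for the table followed the direction of change in these very samples. A higher aged mean is therefore no finding for any member. None of the 47 fixed markers of neuroblasts, stem cells, microglia, NK and T cells, astrocytes, oligodendrocytes, endothelium, neurons or choroid plexus is among the 88 genes, so the labelled cell type was not tested against the data. In such bulk samples, a change in the number of cells of a type and a change in RNA per cell cannot be told apart.

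Among the secreted members, both cytokine genes were high in 1 aged library and low in the other two. Il1a (Entrez gene 16175) had a signal of 142 in aged replicate 1, 3.03 in replicate 2 and 2.83 in replicate 3. Its young signal was 7.50, 5.23 and 3.13. Aged replicate 1 was thus 18.9 times the next highest library, while aged replicates 2 and 3 were below all young libraries. The aged mean of 49.2 ± 80.2 exceeded the young mean of 5.29 ± 2.19 (SD, n = 3 each) by a ratio of 9.31, whereas the ratio of the medians was 0.579.

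Il6 (16193) had the same order at a far lower signal. It was at 1.63 in aged replicate 1, 0.06 in replicate 2 and 0.21 in replicate 3. In the young libraries it was at 0.34, 0.27 and 0.22. Aged replicate 1 was 4.79 times the next highest library, and the other aged libraries were below all young ones, aged replicate 3 by only the last deposited decimal. The means were 0.633 ± 0.866 and 0.277 ± 0.0603 (SD, n = 3 each), a ratio of 2.29, and the ratio of the medians was 0.778. With a mean of 0.455 over the 6 libraries, Il6 was the member left out of the test, because its mean signal did not reach 1.

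The NF-kB members had the opposite order. Rela (19697) had a signal of 34.7 in aged replicate 1, 76.8 in replicate 2 and 81.8 in replicate 3. Its young signal was 49.6, 68.8 and 71.96. Aged replicate 1 was therefore the lowest of all libraries and aged replicates 2 and 3 were the highest. Young replicate 1 was the lowest young library, and the groups overlapped. The means of 64.4 ± 25.8 in the aged and 63.4 ± 12.1 in the young libraries (SD, n = 3 each) differed by a ratio of 1.01.

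Traf3ip2 (103213) was at 2.32 in aged replicate 1, 7.89 in replicate 2 and 9.81 in replicate 3. The young libraries were at 5.24, 5.31 and 4.36, a spread of 1.22 times from lowest to highest. Aged replicate 1 was below each of them and the other aged libraries were above each of them. The means were 6.67 ± 3.89 and 4.97 ± 0.529 (SD, n = 3 each). The mean of aged replicates 2 and 3 alone was 8.85, or 1.78 times the young mean, against 1.25 times for Rela, 0.554 times for Il1a and 0.488 times for Il6. Because the table was picked for a higher aged mean, a gene low in aged replicate 1 needed a high mean of the other aged libraries. The ratios of Traf3ip2 and Rela are thus partly set by the selection. This holds most for Rela, whose aged mean over all 3 libraries was only 1.015 times the young mean.

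**Figure D1:**
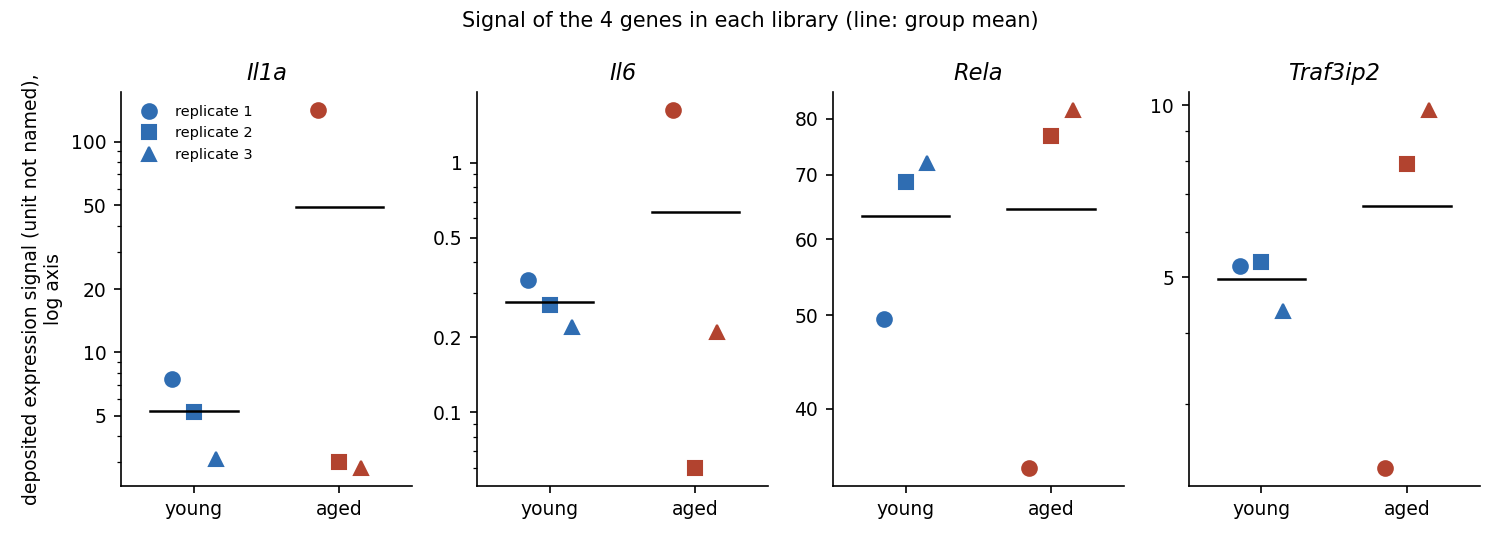
Deposited expression signal (log axis, unit not named) of Il1a, Il6, Rela and Traf3ip2 in the 3 young (blue) and 3 aged (red) libraries, with the replicate number as the symbol and the group mean as a line. Aged replicate 1 is the highest library for Il1a (142) and Il6 (1.63) and the lowest for Rela (34.7) and Traf3ip2 (2.32).

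None of the 4 genes differed between aged and young beyond the spread of the libraries. Log2(signal + 1) was fitted with limma over the 66 genes whose mean signal reached 1, with Benjamini-Hochberg adjustment at a 5% false discovery rate, and 0 of 66 genes passed (0.0%). Changes on this scale understate those of low genes such as Il6. The log2 change of Il1a was 1.11 (SE 1.33, limma adjusted p = 0.994), with 1 of 3 aged libraries above the young ones. That of Traf3ip2 was 0.20 (SE 0.452) and that of Rela −0.054 (SE 0.389), both with a limma adjusted p of 0.994. The log2 change of Rela was negative although its aged mean was higher. Il6, taken from a limma fit of all 88 genes in which 0 passed (0.0%), came to 0.23 (SE 0.323, adjusted p = 0.994). At an unadjusted limma p under 0.05 there were 3 of 66 genes (4.55%), none of them a member. Exact two-sided permutation tests of the log2 means, which cannot go below 0.1 for 3 against 3 libraries, gave p = 1 for Il1a, Il6 and Rela and p = 0.8 for Traf3ip2.

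The authors' deposited table, whose test is not named, lists all 4 genes with a q-value under 0.05. It lists 54 of 85 genes (63.5%) at that threshold, so the members' 4 of 4 stands in a table where most genes pass. In the authors' deposited table Il1a has the highest log2 ratio of aged to young of all genes, 3.21, with a q-value of 0. Il6 has 1.14 (q = 0.0182), Traf3ip2 0.50 (q = 5.55e-10) and Rela 0.059 (q = 0.0206) in the authors' deposited table. The authors' deposited ratio for Il1a thus follows the ratio of the means, which aged replicate 1 sets.

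Without aged replicate 1 the sign of the log2 change turned for 3 of the 4 members. For Rela it turned from −0.054, a value close to 0 beside its SE of 0.389. The log2 change of Il1a was then −0.62 (SE 0.309, limma adjusted p = 0.199) and that of Il6 −0.17 (SE 0.078, limma adjusted p = 0.230, fit of all 88 genes). Rela had 0.33 (SE 0.174, limma adjusted p = 0.208). None of these passed. Traf3ip2 kept its direction and passed, at 0.72 on the log2 scale (SE 0.199, adjusted p = 0.0454 with limma, 0.0259 to 0.999 across alternatives), higher in 2 of 2 aged libraries. In that fit 15 of 66 genes passed (22.7%), 14 of them higher in the aged libraries (21.2%). Because the table was picked for a higher aged mean, a gene that is low in aged replicate 1 had to be high in the other aged libraries, so the direction of this call is partly set by the selection.

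The Traf3ip2 call was near the threshold. Without aged replicate 1 it was lost when all 88 genes were fitted (log2 change 0.72, limma adjusted p = 0.0843, 8 of 88 genes called, 9.09%). It was also lost when library medians were set equal (0.48, limma adjusted p = 0.142, 9 of 66 called, 13.6%). With all 6 libraries, array weights, by which limma gives less weight to a library that deviates from the rest, put Traf3ip2 at 0.70 (SE 0.187, limma adjusted p = 0.0259, 15 of 66 called, 22.7%). Leaving out any other single library, no member passed.

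Equal medians without aged replicate 1 gave calls in the cytokines when all 88 genes were fitted, of which 16 passed (18.2%). Il6 was then lower by a log2 change of −0.48 (limma adjusted p = 0.0210, 0.0210 to 0.999 across alternatives) and Il1a by one of −0.93 (limma adjusted p = 0.0278), each in 2 of 2 aged libraries. With Il1a fitted among the 66 genes it was −0.85 (limma adjusted p = 0.0894) and did not pass. The shift of the log2 values put the aged mean of Il6 at −0.007, below a signal of 0, so that value is not a level. Without the shift, the same fit of 88 genes gave −0.17 for Il6 (limma adjusted p = 0.230). It gave −0.62 for Il1a (limma adjusted p = 0.289). Both calls thus depended on the shift of the libraries.

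**Figure D2:**
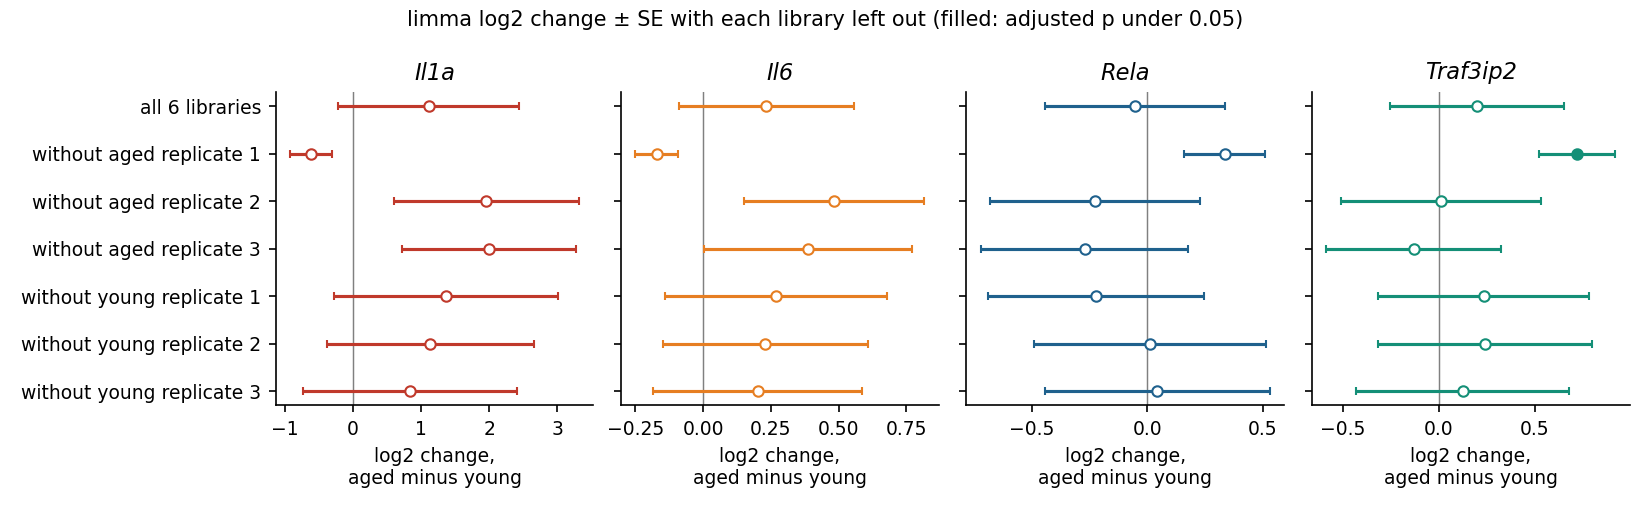
Log2 change of aged minus young from limma, with its SE, for each member with all 6 libraries and with each library left out in turn (Il6 from the fit of all 88 genes), filled where the adjusted p was under 0.05. Leaving out aged replicate 1 moves Il1a to −0.62, Il6 to −0.17, Rela to 0.33 and Traf3ip2 to 0.72, the 1 filled point.

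The order of the libraries placed the members in 2 groups that many other genes share. Il1a and Il6 were 2 of 7 genes among the 88 (7.95%) that exceeded every young library in aged replicate 1 and lay under every young library in both other aged replicates. The other 5 were Myc, Tgfbr1, Gadd45b, Pik3r1 and Zfp36l2, named here after their values were seen. Rela and Traf3ip2 were 2 of 22 genes (25.0%) with the reverse order. The groups did not overlap in 4 of 88 genes (4.55%), none of them a member. Il1a had the largest difference between aged replicate 1 and the young mean of all 88 genes, 4.57 on the log2(signal + 1) scale, against a median of 0.15. The same difference was 1.04 for Il6, −0.83 for Rela and −0.84 for Traf3ip2. For the mean of aged replicates 2 and 3, the difference from the young mean was −0.62 for Il1a, −0.17 for Il6, 0.33 for Rela and 0.72 for Traf3ip2, against a median of 0.16.

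**Figure D3:**
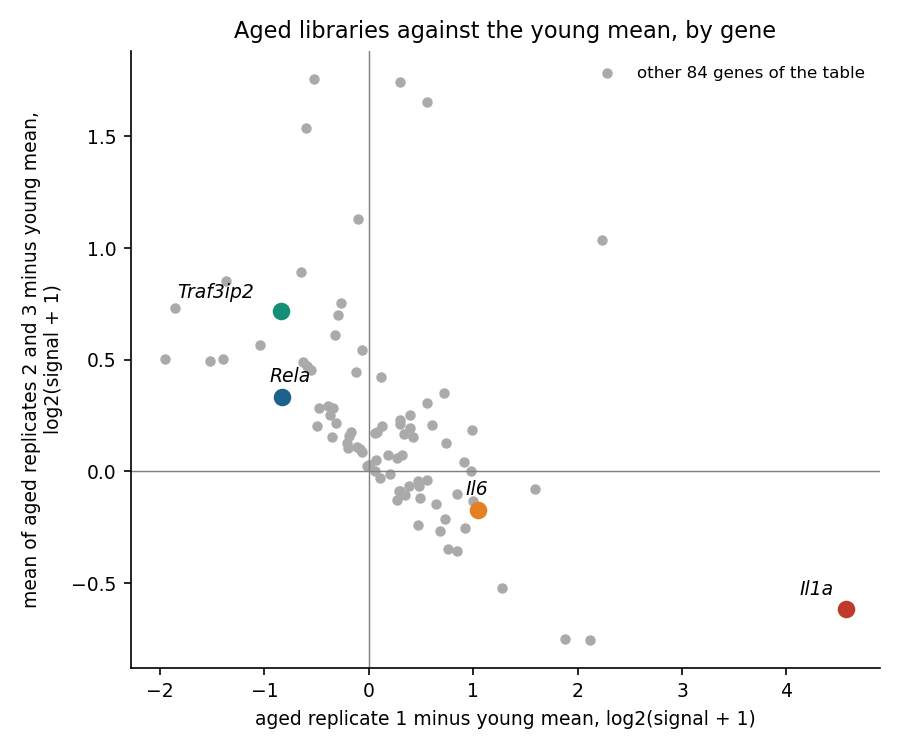
Each point is a gene of the table, with the difference of aged replicate 1 from the young mean on the x axis and that of the mean of aged replicates 2 and 3 on the y axis, both in log2(signal + 1). Il1a (4.57) and Il6 (1.04) lie at the lower right, and Rela (−0.83) and Traf3ip2 (−0.84) at the upper left; the empty lower left corner follows from the selection for a higher aged mean.

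The GC content of the transcripts was low for the cytokine genes and high for Rela. In GENCODE release M21, the longest coding transcript had a GC content of 39.3% for Il6, the second lowest of 80 genes with a value. It was 41.3% for Il1a, 51.7% for Traf3ip2 and 59.4% for Rela, the last being rank 78 of 80 from the lowest, with a median of 51.3%. Transcript lengths were closer together, at 1974 bases for Il1a, 2343 for Il6, 2716 for Rela and 2867 for Traf3ip2. After a linear trend on GC content and length was taken out of each library, and without aged replicate 1, the log2 change of Rela went from 0.33 to 0.057 (SE 0.0882, limma adjusted p = 0.627) and that of Il1a from −0.62 to −0.41 (SE 0.179, limma adjusted p = 0.145). Il6 went from −0.17 to 0.11 (SE 0.166, limma adjusted p = 0.663) in a fit of 80 genes that called 6 (7.5%). The removal also moved the young mean of Il6 from 0.351 to 1.675 on the log2 scale. At so low a signal that mean is not a level, and the turn of the sign was not tested. Traf3ip2 moved least, from 0.72 to 0.69 (SE 0.140, limma adjusted p = 0.0351), in a fit that called 6 of 62 genes (9.68%). Its GC content lay close to the median, where the removal of a linear GC trend can change a gene only little. The small move is therefore no test of its call. These trends were fitted with the members included, and the part of GC content in the members' orders was not tested further. With all 6 libraries, the trend removed, the changes were 1.01 for Il1a, 0.21 for Il6, −0.014 for Rela and 0.21 for Traf3ip2, and none passed.

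**Figure D4:**
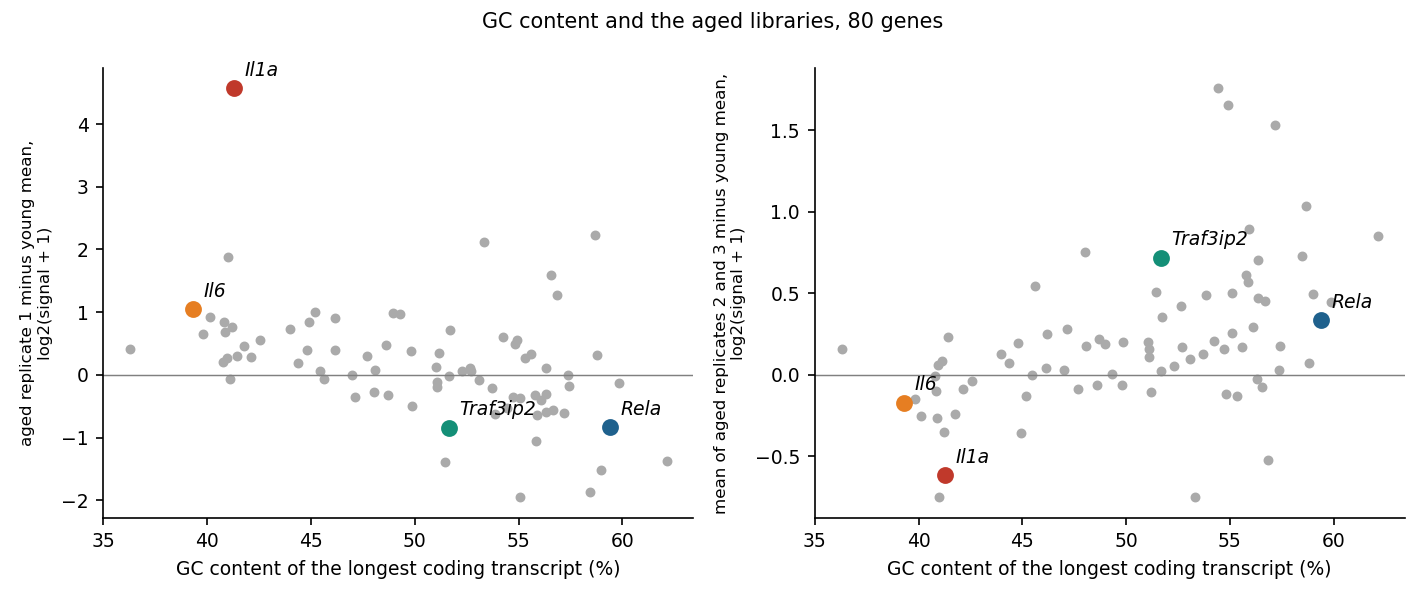
Difference of aged replicate 1 (left) and of the mean of aged replicates 2 and 3 (right) from the young mean, in log2(signal + 1), against the GC content of each gene's longest coding transcript in percent, for 80 genes. Il6 (39.3%) and Il1a (41.3%) lie at the low end and Rela (59.4%) at the high end, with Traf3ip2 (51.7%) near the middle.

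On the log2(signal + 1) scale, young replicate 1 stood further from the other young libraries in Il1a and Rela than in Il6 and Traf3ip2. Young replicate 1 exceeded the mean of young replicates 2 and 3 by 0.74 for Il1a on the log2(signal + 1) scale and was below it by −0.50 for Rela, against a median of 0.073 over the 88 genes. For Il6 it was 0.11 above and for Traf3ip2 0.10 above, both near that median. At the low signal of Il6 the pseudocount of 1 flattens differences. The highest to lowest ratio of Il6 among young libraries was 1.545, above that of Rela. Traf3ip2 was thus the steadier of the NF-kB members among young libraries, with a highest to lowest ratio of 1.22 against 1.45 for Rela.

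Traf3ip2 and Rela were also compared within each library, which removes part of the scaling of the library (a pseudocount of 1 keeps it from cancelling in full). The difference of their log2(signal + 1) values was −3.43, −3.13 and −2.94 in aged replicates 1 to 3. It was −3.02, −3.47 and −3.77 in young replicates 1 to 3. The groups overlapped, and aged minus young was 0.25 (exact permutation test, two-sided, p = 0.4). Without aged replicate 1 it was 0.38 (exact permutation p = 0.3).

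The pathway around the members was followed through the KEGG terms printed in the table. The 4 genes share a single term, cellular senescence. Il6, Rela and Traf3ip2 also share the term for IL-17 signalling, and Il1a and Il6 that for cytokine receptor interaction. In all, 13 genes carry at least 1 of 6 terms (NF-kB, IL-17, TNF, Toll-like receptor, NOD-like receptor and cytokine-cytokine receptor), and 12 of them were tested. None passed in either direction with all 6 libraries (0.0% of 66), and their median log2 change was 0.08 against 0.12 over all 66 genes. Without aged replicate 1, 1 of 12 was higher (Traf3ip2) and 0 were lower, against 21.2% and 1.52% of all genes, with a median of 0.03 against 0.20. With equal medians as well, 0 of 12 were higher and 2 were lower, against 7.58% and 6.06% of all genes. These were Tgfbr1, at −0.99 (SE 0.224, limma adjusted p = 0.0318), and Pik3r1, at −0.59 (SE 0.159, limma adjusted p = 0.0445).

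Nfkb1 (18033), which encodes the partner of RelA, varied least of these genes. Its signal was 19.1, 22.6 and 21.2 in aged replicates 1 to 3, against 20.8, 20.2 and 20.2 in young replicates 1 to 3. It had the same order as Rela but a highest to lowest ratio of 1.18 against 2.35. Of the list of 21 NF-kB subunits and activators, Rela, Nfkb1 and Traf3ip2 were the 3 in the table. Only Nfkb1 of the 3 is not a member. Each was lowest in aged replicate 1 and above all young libraries in aged replicates 2 and 3. That order was found in 25.0% of all 88 genes and is partly set by the selection for a higher aged mean. The median log2 change of the 3 genes was 0.04, and 0.33 without aged replicate 1, against 0.12 and 0.20 over all 66 genes.

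The IL-17 term held 7 genes, 6 of them tested, among them 3 p38 kinases that act below the receptor beside NF-kB. Mapk12 had a signal of 2.60, 19.7 and 17.9 in aged replicates 1 to 3, against young values of 10.5, 13.04 and 15.8. Mapk11 had 1.41, 3.91 and 3.79 against 2.65, 3.11 and 1.97. Both followed the order of Rela and Traf3ip2, which 5 of the 7 genes of the term had, with Il6 in the reverse order. The 5 include the members Rela and Traf3ip2 themselves, beside Nfkb1, Mapk11 and Mapk12. Over all 88 genes, 25.0% had that order and 7.95% the reverse. Mapk13, at 0.74 to 1.83 in the aged and 0.81 to 1.88 in the young libraries, had neither. The median log2 change of the term was 0.04 against 0.12 over all 66 genes. Without aged replicate 1 it was 0.39 against 0.20, and Traf3ip2 was the 1 of 6 genes that passed, where 22.7% of all genes did. With equal medians as well, 0 of the 6 passed.

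The receptor and kinase genes that carry 1 of the other terms and not the IL-17 term followed the cytokines or neither order. All 3 genes of the cytokine receptor term had the order of Il1a, but Il1a and Il6 are members, so the count is no trend of the term. That order was found in 7.95% of all 88 genes. The only gene of the term that is not a member was Tgfbr1, a receptor for TGF-beta. Its signal was 164, 28.6 and 23.04 in aged replicates 1 to 3 and 34.4 to 60.8 in the young libraries. Pik3r1, a regulatory subunit of PI3K, was at 27.1, 11.96 and 10.5 in aged replicates 1 to 3 and 13.1 to 16.9 in the young libraries, again in that order. Map2k1, a kinase above ERK, was at 15.5 to 22.7 in the aged and 16.3 to 20.2 in the young libraries. Trpm7, a channel kinase, was at 5.00 to 14.5 and 4.45 to 11.6, and the kinase gene Atm at 1.56 to 2.92 and 1.54 to 1.88. Aged replicate 1 was the highest library for each of these last 3.

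**Figure D5:**
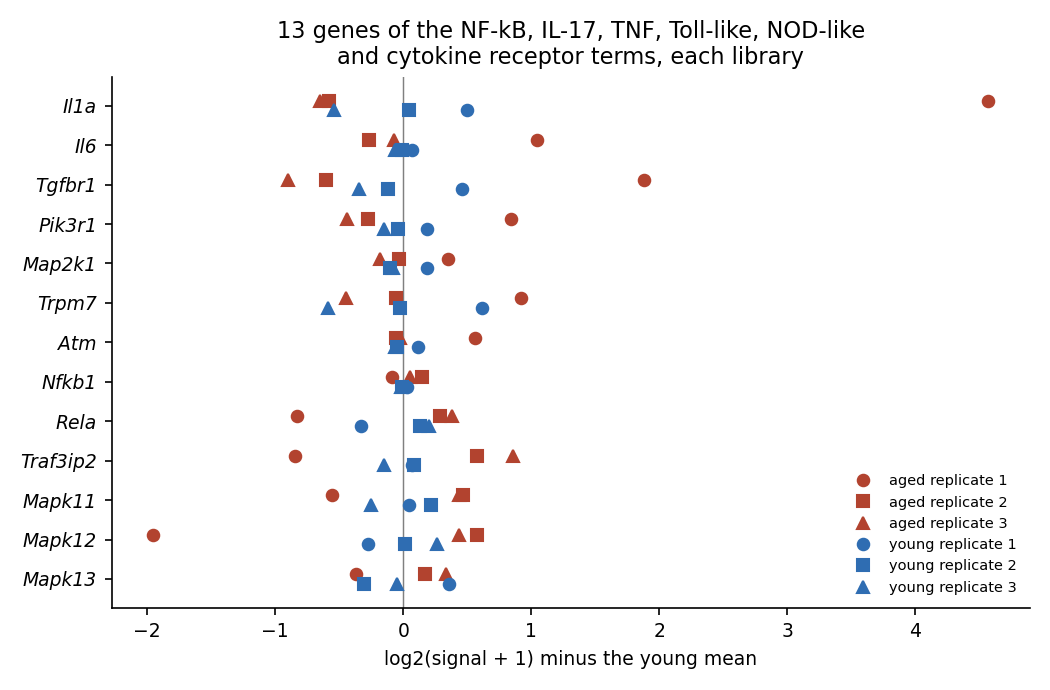
Log2(signal + 1) minus the young mean for the 13 genes that carry at least 1 of the 6 KEGG terms, in each young (blue) and aged (red) library, with the replicate number as the symbol. Aged replicate 1 lies to the right of all young libraries for the genes from Il1a to Atm and to the left of them for Nfkb1, Rela, Traf3ip2, Mapk11, Mapk12 and Mapk13.

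Igfbp2 (16008), which binds insulin-like growth factors, is another gene from the fixed list of secreted factors of senescent cells. Its signal was 170 in aged replicate 1, 776 in replicate 2 and 814 in replicate 3, and 329 to 733 in the young libraries. It had the order of Rela and not that of the cytokines. Its log2 change was 0.11 (SE 0.777, limma adjusted p = 0.994), and 0.85 (SE 0.334, limma adjusted p = 0.121) without aged replicate 1, and neither passed.

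The genes whose pattern was most like each tested member were taken by Pearson correlation of log2(signal + 1) over the 6 libraries, as a description in which all genes share the same libraries and depth. Il1a was closest to Atm (0.986), E2f2 (0.974) and Myc (0.964). Over the 5 libraries without aged replicate 1 these fell to 0.799, 0.551 and 0.747, so these 3 values rest in part on that library. Rela was closest to E2f4 (0.980), H2-T22 (0.972) and H2-D1 (0.971), with 0.969, 0.910 and 0.893 over the 5 libraries. Traf3ip2 was closest to H2-T23 (0.979), Mapk11 (0.953) and Ppp1cc (0.945), with 0.948, 0.891 and 0.854.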

How the data were processed

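Messenger RNA was purified on oligo(dT) beads from Trizol extracts of ground tissue, per the labels' protocols. The values deposited by the authors are an expression signal for each gene in each sample. The sources used here do not give its unit, normalization, aligner or genome build. Per the file headers, the table also holds a log2 ratio (aged over young), a p-value and a q-value computed by the authors. Groups and replicate numbers came from the sample titles. The second deposited table holds none of the 4 genes and was not used.

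Signals were fitted as log2(value + 1) with limma 3.58.1 (lmFit, then eBayes with a trend on the mean, R 4.3.3), without covariates, over genes with a mean of at least 1. Exact permutation tests, counts and plots used Python 3.11.15, numpy 2.4.6, pandas 2.3.3 and matplotlib 3.10.9. The fit was also run on simulated data with raised signals and no library like aged replicate 1. That run therefore does not bear on the calls given here. GC content and length came from GENCODE release M21, matched on Entrez ID, and promoters from RefSeq GRCm38.p6. Apart from the Il6 promoter, placed on the RefSeq build, no gene coordinates are given because the build of the files is not named.

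Named genes were the members, 3 genes most like each tested member and up to 4 of each pathway list by mean signal. The counts and median of the secreted factor list, and a gene of it, are not reported here. The members and lists were chosen with earlier results of these data known. Alternatives were a pseudocount of 0.1, equal medians of the libraries, a minimum mean of 5 or none, no trend, array weights (whose estimation stopped before full convergence), a replicate block and each library left out. The removal of GC and length trends, and the pairing of equal medians, of no filter or of that removal with the omission of aged replicate 1, were added after seeing the data.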

Additional observations from a re-analysis of the deposited data

How the results depend on the processing

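With all 6 libraries limma called 0 of 66 genes. It called 15 with array weights, 0 to 15 with 1 library left out (15 without aged replicate 1), 6 of 62 with GC and length trends removed and 9 of 66 with equal medians, both of the latter without aged replicate 1. Without that library, fits with no filter on low values called 8 of 88 genes, 16 of 88 with equal medians and 6 of 80 with the trends removed. The remaining alternatives, each with all 6 libraries, called 0. Equal medians moved each log2 change by −0.21 in the fit of 66 genes, which turned Traf3ip2 to −0.008, and by −0.30 in the fit of all 88 genes, which turned Il6 to −0.065. Array weights gave −0.44 for Il1a, −0.13 for Il6, 0.22 for Rela and 0.70 for Traf3ip2.

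With 1 library left out, the log2 change ran from −0.62 to 1.99 for Il1a, from −0.17 to 0.48 for Il6, from −0.27 to 0.33 for Rela and from −0.13 to 0.72 for Traf3ip2. Rela was at 0.013 without young replicate 2 and at 0.044 without young replicate 3, and Traf3ip2 at −0.13 without aged replicate 3. The cause of these reversals was not tested, beyond their being values close to 0 for Rela. Without aged replicate 1, Il1a was at −0.41 with GC and length trends removed, −0.85 with equal medians (limma adjusted p = 0.0894) and −0.62 with no filter. Rela was then at 0.057, 0.098 and 0.33, and Traf3ip2 at 0.69 with the trends removed. Il6 was at −0.48 with equal medians in the fit of all 88 genes.

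The replicate block changed no call of a member and called 0 genes, with a log2 change of 1.11 (SE 0.983) for Il1a and 0.20 (SE 0.427) for Traf3ip2. In the labels, samples of the same number share only that number. Their deviations from the group means correlated at 0.271, 0.091 and 0.408 for replicates 1, 2 and 3. Aged replicates 1 and 3 each correlated best with the young library of the same number, and aged replicate 2 with young replicate 3 (0.254). Whether the samples were paired was not tested. The difference between Traf3ip2 and Rela within libraries ran from 0.079 to 0.45 with 1 library left out and was 0.25 with the replicate block (exact permutation p = 0.75, where 3 pairs cannot go below 0.25). Depth is unknown, so a limit of detection for Il6 cannot be given.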
